A study of Mus musculus with 12 samples.

Results

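The 10 genes described here are those of the MHC class II pathway that encode the class II chains, their peptide-loading helpers and their master regulator. They were chosen by name as the rows of the count table whose Ensembl identifiers map to H2-Aa, H2-Ab1, H2-Eb1, H2-DMa, H2-DMb1, H2-DMb2, H2-Oa, H2-Ob, Cd74 and Ciita, 10 of 51826 genes in all. MHC class II molecules present peptides to CD4+ T cells and are a hallmark of B cells, dendritic cells and macrophages. Their genes are transcribed when CIITA, a coactivator that does not bind DNA itself, docks on a promoter complex of RFX at the X box and NF-Y at the Y box. In the C57BL/6 strain the surface molecule is I-A, a pair of the H2-Aa and H2-Ab1 chains, because the H2-Ea partner of H2-Eb1 is not expressed. The invariant chain (Cd74) guides the pair to endosomes, H2-M (H2-DMa with H2-DMb1 or H2-DMb2) exchanges its peptide, and H2-O (H2-Oa with H2-Ob) holds H2-M back in B cells.

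RNA was sequenced from 12 lines of bone marrow-derived pro-B and pre-B cells, made from 2 C57BL/6 mice whose age is not given. Marrow was grown for 7 days with interleukin 7 (IL7), the growth factor of B cell precursors, and transduced with either an empty pMIG retroviral vector (EV) or one that carries BCR-ABL1, the leukaemic fusion of a tyrosine kinase. Each mouse gave 3 EV lines and 3 BCR-ABL1 lines, named by mouse and letter (1A to 1C and 2A to 2C). All lines had IL7 for 48 h after transduction, after which IL7 was taken from the BCR-ABL1 lines for 1 week, whereas EV lines stayed in IL7 and were then purified by their GFP, which the vector encodes. BCR-ABL1, IL7 withdrawal and the GFP purification described for EV lines therefore cannot be told apart in any comparison below. No strain or allele differed between the conditions. In bulk RNA of this kind, fewer cells that express a gene and less RNA per cell cannot be told apart either.

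To show the promoters on which CIITA acts, the stretch around the Y box of 5 members is printed, taken from RefSeq on GRCm38.p6, 5′ to 3′ along the gene. These 5 are shown because they include members that fell, a member that did not, and a member whose call turned on a single line. Capitals mark the Y box core (GATTGG) and, where present, the X box letters, either AGCAAC or a longer form (AG, any 2 bases, AC, any base, GATG). These forms overlap in H2-Eb1.
H2-Aa: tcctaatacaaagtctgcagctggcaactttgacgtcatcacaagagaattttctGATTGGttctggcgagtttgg
H2-Eb1: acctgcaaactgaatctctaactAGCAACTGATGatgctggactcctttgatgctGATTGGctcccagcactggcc
H2-Ob: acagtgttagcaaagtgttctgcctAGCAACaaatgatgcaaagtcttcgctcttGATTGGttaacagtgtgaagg
H2-Oa: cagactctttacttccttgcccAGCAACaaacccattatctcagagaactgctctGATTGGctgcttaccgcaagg
H2-DMb2: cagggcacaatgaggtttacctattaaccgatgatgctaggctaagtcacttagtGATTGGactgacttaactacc
They lie at chr17:34287852-34287927 on the minus strand for H2-Aa and, on the plus strand, at chr17:34305752-34305827 for H2-Eb1, chr17:34238792-34238867 for H2-Ob, chr17:34092280-34092355 for H2-Oa and chr17:34145103-34145178 for H2-DMb2. Each lies upstream of the RefSeq start, and the last bases of the H2-Oa stretch belong to the first exon in the GENCODE M21 model. A RefSeq window from 250 bases before to 50 bases after the start was matched for 7 of the 10 members, and H2-DMa had 2 such windows. All 7 held the Y box core on either strand in at least 1 window, against 16.1% of 32851 windows of the same length. The longer X box letters stood in 3 of them (H2-Oa, H2-DMb1 and H2-Eb1), against 0.968% of all windows, outside the printed stretch in H2-Oa, and AGCAAC also stood in 3 (H2-Oa, H2-Ob and H2-Eb1), against 14.8%. The letters of a STAT site (TTCNNNGAA) stood in 1 (H2-DMb2) against 8.3%, and those of an interferon response element (GAAA, any 2 bases, GAAA) in 0 against 3.44%. Members that fell and members that did not thus both carried the Y box core.

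The 12 lines had between 34791011 and 66011225 counts on genes, and 15038 genes passed edgeR's filterByExpr, all 10 members among them. Levels are given as CPM, that is counts divided by the TMM-scaled library size. The conditions were compared by edgeR's glmTreat, which asks whether a change exceeds 1.5-fold, with Benjamini-Hochberg adjusted p-values over all tested genes, and errors of log2 fold changes are standard errors computed from the log2 CPM of the lines (n = 6 per condition). The B-lineage label held in every line, for Cd79a, a signalling chain of the B cell receptor, lay between 323 and 611 CPM (EV) and between 294 and 503 CPM (BCR-ABL1). EV line 2B stood apart from the other EV lines. It was at least 4-fold above each of them, with more than 3 counts, for 7 of the 10 members, while 0.346% of all tested genes met this rule and none of the other 11 lines met it, within its own condition, for any member (0% to 0.572% of all tested genes). Each member is therefore given with and without EV 2B. The line was singled out by the levels of these same members. Calls made without it thus draw on the values that marked it, and are no independent support.

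Over all 12 lines, 4 of the 10 members fell in BCR-ABL1 lines (Ciita, H2-Aa, H2-Eb1 and H2-Ob) and 0 rose. In the background of all tested genes 6.46% fell and 5.98% rose. The count of members that rose with glmTreat was also 0 at an unadjusted p under 0.05, by edgeR's likelihood ratio test and by its test against no change. It was 0 by DESeq2 too, which gave no adjusted p to H2-Ab1, H2-DMa, H2-Aa and H2-Eb1 and so could not call them. Without EV 2B the same 4 fell and 3 rose (H2-Ab1, H2-DMa and H2-DMb2), beside 5.81% of genes that fell and 6.42% that rose. The levels of BCR-ABL1 and EV lines did not overlap for 3 members that were lower (Ciita, H2-Aa and H2-Eb1), against 13.5% of all genes, and for 0 that were higher, against 12.1%. Without EV 2B, 3 were lower (against 14.4%) and 3 higher (against 13.5%) with no overlap. With mouse as a block 4 members fell and 0 rose, against 7.16% and 7.47% of genes. The median log2 fold change was 0.02 over the 10 members and -0.02 over all tested genes.

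**Figure D1:**
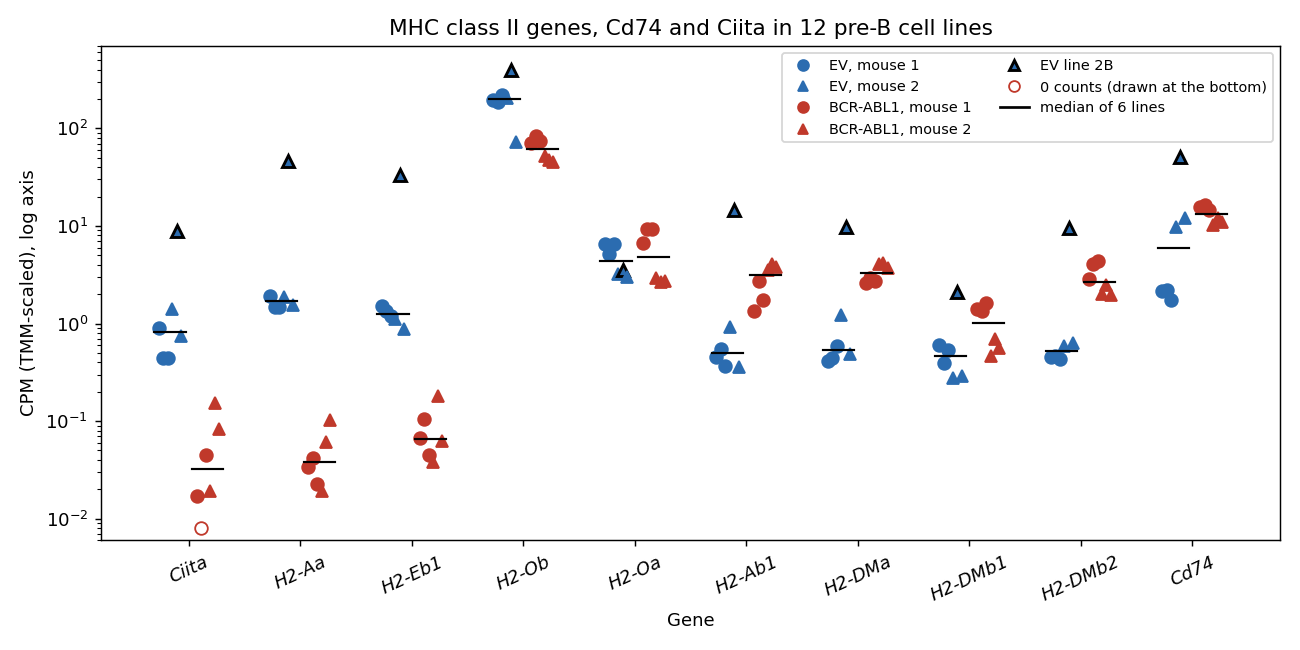
CPM (log axis) of each gene in the 6 EV lines (blue) and the 6 BCR-ABL1 lines (red), with circles for mouse 1, triangles for mouse 2, a bar at the median and a black outline for EV 2B. Ciita, H2-Aa and H2-Eb1 separate the conditions, and EV 2B is the highest EV line for every gene but H2-Oa.

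Ciita, at chromosome 16, 10480059 to 10528418 on the plus strand, was low in both conditions. EV lines ranged from 0.445 to 8.90 CPM with a median of 0.821, and BCR-ABL1 lines from 0 to 0.152 CPM with a median of 0.0323. In counts, the 6 EV lines had 48, 31, 29, 46, 448 and 41 (1A to 2C), and the 6 BCR-ABL1 lines 1, 0, 2, 1, 10 and 4. Every EV line was above every BCR-ABL1 line. The log2 fold change was -5.22 ± 0.73 (adjusted p = 0.00484), and -3.78 without EV 2B (adjusted p = 0.00214). Because 4 BCR-ABL1 lines were at or below 3 counts, the ratio of pooled counts is given with its counting interval. Without EV 2B the EV lines held 12.5 times the level of the BCR-ABL1 lines (95% interval 7.67 to 21.5), and within mouse 1 29.0 times (9.65 to 143), on 108 against 3 counts. Intervals of this kind cover counting error only.

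H2-Aa, the I-A alpha chain (chromosome 17, 34282744 to 34287823, minus strand), fell most among the members. EV lines ranged from 1.47 to 46.1 CPM with a median of 1.71, and BCR-ABL1 lines from 0.0193 to 0.104 CPM with a median of 0.0379. Apart from EV 2B the EV lines lay within 1.47 and 1.92 CPM, and no BCR-ABL1 line had more than 5 counts. The log2 fold change was -7.51 ± 0.82 (adjusted p = 0.00204) and, without EV 2B, -5.07 (adjusted p = 3.95e-06). In pooled counts without EV 2B, EV lines held 34.2 times the level of BCR-ABL1 lines (95% interval 20.5 to 61.7).

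H2-Eb1, the I-E beta chain (chromosome 17, 34305867 to 34316674, plus strand), was lower as well. EV lines ranged from 0.884 to 33.7 CPM (median 1.26) and BCR-ABL1 lines from 0.0385 to 0.182 CPM (median 0.0650). The log2 fold change was -6.23 ± 0.84 (adjusted p = 0.00459) and -3.79 without EV 2B (adjusted p = 5.32e-05), and in pooled counts without EV 2B the ratio was 13.8 (95% interval 9.34 to 21.0). H2-Aa and H2-Eb1 were thus low in every BCR-ABL1 line of both mice.

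H2-Ab1, the I-A beta chain that pairs with H2-Aa (chromosome 17, 34257689 to 34269419, plus strand), did not go with them. EV lines ranged from 0.361 to 14.7 CPM (median 0.500) and BCR-ABL1 lines from 1.36 to 4.11 CPM (median 3.13). The BCR-ABL1 lines lay above all EV lines except 2B, whose level was 32.5 times the median of the other EV lines. With all 12 lines the log2 fold change was -0.0015 ± 0.86 (adjusted p = 1), and without EV 2B it was 2.45 (adjusted p = 0.00181). H2-Ab1 and H2-Aa are neighbours. Without EV 2B both were past the threshold in opposite directions, in a fit that leaves out a line marked by these same genes.

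The relation between the alpha and beta chains can be read within each line, where scaling between libraries plays no part. Per exon length, H2-Aa counts were 1.37 to 2.91 times those of H2-Ab1 in the EV lines (median 2.41) and 0.00369 to 0.0184 times in the BCR-ABL1 lines (median 0.0102). EV 2B, at 2.12, lay among the other EV lines. For H2-Eb1 over H2-Ab1 the ratio was 1.59 to 4.40 in EV lines, with EV 2B at 3.03, and 0.0144 to 0.0660 in BCR-ABL1 lines. EV 2B thus held more of all 3 chains in about the proportions of the other EV lines, and the BCR-ABL1 lines held H2-Ab1 with little of the others. These ratios were chosen after the values were seen and carry no test.

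**Figure D2:**
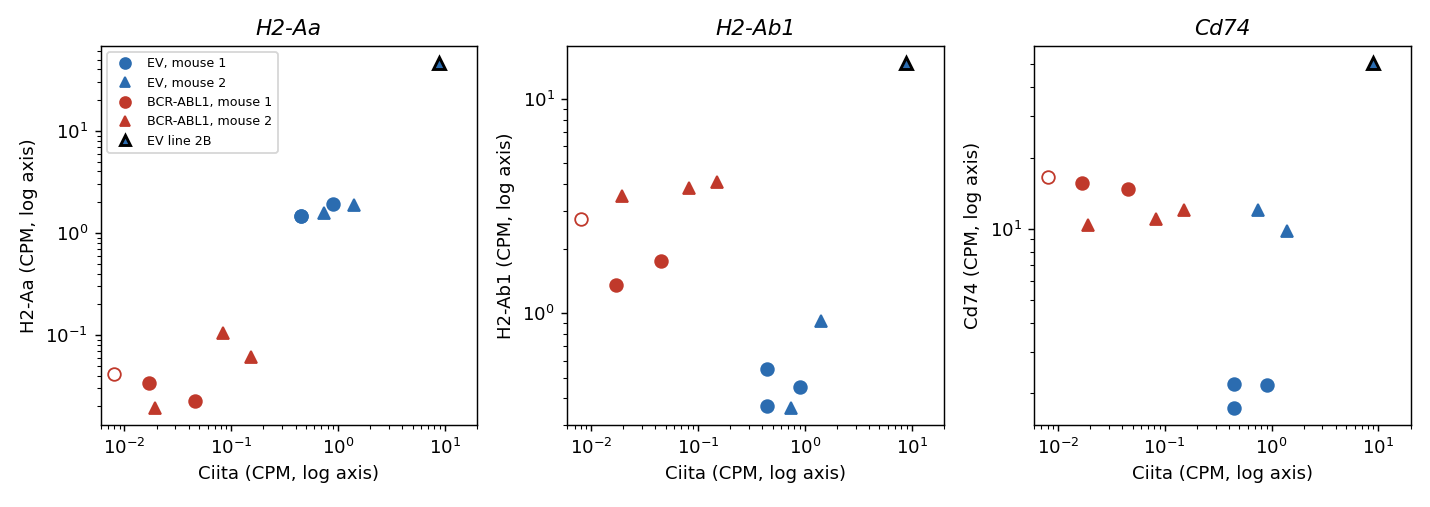
CPM of H2-Aa (left), H2-Ab1 (middle) and Cd74 (right) against CPM of Ciita, both on log axes, in 12 lines; the open circle is a BCR-ABL1 line with 0 Ciita counts, drawn at the left edge, and the black outline marks EV 2B. Both H2-Aa and Ciita were lower in every BCR-ABL1 line than in any EV line, whereas H2-Ab1 in BCR-ABL1 lines (1.36 to 4.11 CPM) lay above the EV lines other than 2B.

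The H2-M genes lie side by side on chromosome 17. H2-DMa (34119541 to 34139101, plus strand), the alpha chain, ranged from 0.414 to 9.65 CPM in EV lines (median 0.535) and from 2.58 to 4.21 CPM in BCR-ABL1 lines (median 3.33). H2-DMb2 (34143307 to 34151555, plus strand), a beta chain, ranged from 0.430 to 9.44 CPM (median 0.522) and from 1.97 to 4.41 CPM (median 2.67). In both genes EV 2B was the highest of the 12 lines and every BCR-ABL1 line was above the other 5 EV lines. The log2 fold changes over 12 lines were 0.66 ± 0.71 for H2-DMa and 0.57 ± 0.72 for H2-DMb2 (adjusted p = 1 for both). Without EV 2B they were 2.43 (adjusted p = 0.000661) and 2.53 (adjusted p = 0.000209), so both calls turn on that line.

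H2-DMb1 (34153072 to 34160230, plus strand), the other beta chain, ranged from 0.276 to 2.13 CPM in EV lines (median 0.464) and from 0.462 to 1.64 CPM in BCR-ABL1 lines (median 1.02). Its groups overlapped, and its log2 fold change was 0.53 ± 0.52 with all lines (adjusted p = 1) and 1.25 without EV 2B (adjusted p = 0.128). Both beta chain genes share sequence, and 4.71% of the 150-base stretches (the read length) of H2-DMb1 transcripts and 4.14% of those of H2-DMb2 are the same in the other gene, so the split of those reads is uncertain. H2-DMa overlaps the antisense gene Brd2, a bromodomain protein, by 3094 bases. Whether strand was used in counting is not given in the sources used here, so reads of the shared stretch cannot be assigned with certainty. Brd2 itself had a log2 fold change of 0.15 (adjusted p = 1), and in EV 2B it was at 0.979 times the highest of the other EV lines.

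H2-Ob had the highest level of the members and fell, while its partner H2-Oa did not pass. H2-Ob (chromosome 17, 34238903 to 34254414, plus strand), its beta chain, ranged from 73.2 to 393 CPM in EV lines (median 201) and from 45.4 to 83.3 CPM in BCR-ABL1 lines (median 62.0). The groups overlapped through EV 2C alone, at 73.2 CPM, since the other EV lines were at 187 CPM or more. The log2 fold change was -1.77 ± 0.35 (adjusted p = 0.00762) and -1.51 without EV 2B (adjusted p = 0.0108). H2-Oa (chromosome 17, 34092340 to 34095234, plus strand), its alpha chain, ranged from 3.01 to 6.59 CPM in EV lines (median 4.34) and from 2.65 to 9.36 CPM in BCR-ABL1 lines (median 4.82), with a log2 fold change of 0.26 ± 0.42 (adjusted p = 1). EV 2B was at 3.50 CPM for it, within the range of the other EV lines. Per exon length, H2-Ob was 6.36 to 29.4 times H2-Oa in EV lines and 2.08 to 4.69 times in BCR-ABL1 lines, with no overlap.

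Cd74 (chromosome 18, 60803848 to 60812652, plus strand), the invariant chain and a surface receptor for the cytokine MIF, split the EV lines by mouse. EV lines of mouse 1 had 2.16, 2.19 and 1.74 CPM (1A, 1B and 1C), and those of mouse 2 had 9.78, 50.4 and 12.0 CPM (2A, 2B and 2C). BCR-ABL1 lines had 15.6, 16.6 and 14.7 CPM in mouse 1 and 10.3, 12.0 and 11.04 CPM in mouse 2. The condition thus separated the lines of mouse 1, while in mouse 2 the BCR-ABL1 lines lay within the range of the EV lines. The log2 fold change over 12 lines was 0.04 ± 0.79 (adjusted p = 1), and without EV 2B 1.26 (adjusted p = 0.283).

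To ask whether the effect differed between the mice, the interaction of mouse and condition was tested with edgeR's glmQLFTest. It passed for 1 of 10 members, Cd74 (log2 difference of effects, mouse 2 minus mouse 1, -4.06, adjusted p = 0.00281), against 16.7% of all genes. Without EV 2B, Cd74 kept it at -2.91 (adjusted p = 4.53e-06) and H2-DMb2 joined at -1.25 (adjusted p = 0.0208), against 19.6% of genes. For Ciita, H2-Aa, H2-Eb1 and H2-Ob the interaction had adjusted p-values between 0.411 and 0.922. Between the EV lines of the mice 1 of 10 members differed beyond 1.5-fold, again Cd74 (3.57 higher in mouse 2 on the log2 scale, adjusted p = 0.00136), against 10.2% of genes. Without EV 2B that difference was 2.42 (adjusted p = 3.69e-06). Between BCR-ABL1 lines of the mice it was H2-Oa, whose lines of mouse 2 (2.65 to 2.95 CPM) were below those of mouse 1 (6.70 to 9.36 CPM) at a log2 difference of -1.61 (adjusted p = 0.00211), against 2.6% of genes. Without EV 2C, 7 members passed the interaction and 7 differed between the EV lines of the mice, and without EV 2A these counts were 2 and 6. The share of all genes in these fits is not given here, so whether the counts are particular to the members cannot be told. These tests compare 1 mouse with 1 mouse, and lines of a mouse are not mice.

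Within mouse 1, 4 of 10 members fell and 5 rose in BCR-ABL1 lines, against 12.2% and 16.2% of genes. The members that fell were Ciita (-4.73), H2-Aa (-5.51), H2-Eb1 (-4.15) and H2-Ob (-1.38) on the log2 scale, and those that rose were H2-DMb2 (3.08), Cd74 (2.95), H2-DMa (2.505), H2-Ab1 (2.09) and H2-DMb1 (1.53). The largest adjusted p of these 9 was 0.000994, for H2-DMb1. Within mouse 2, which holds EV 2B, 0 members passed glmTreat, against 2.51% of genes that fell and 3.83% that rose, and 4 were lower at an unadjusted p under 0.05. There the log2 fold changes were -5.34 for Ciita, -8.02 for H2-Aa, -6.86 for H2-Eb1 and -2.19 for H2-Ob, with adjusted p-values between 0.0590 and 0.0965. The direction of these 4 was the same in both mice. With EV 2B left out of mouse 2, in a fit chosen after seeing the data, 2 members fell (H2-Aa, -4.75, and H2-Eb1, -3.27) and 2 rose (H2-Ab1, 2.63, and H2-DMb2, 1.83), against 1.74% and 3.19% of genes. There Ciita was at -3.54 (adjusted p = 0.0521), H2-DMa at 2.28 (adjusted p = 0.0572), H2-Ob at -1.50 (adjusted p = 0.182) and Cd74 at 0.041.

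**Figure D3:**
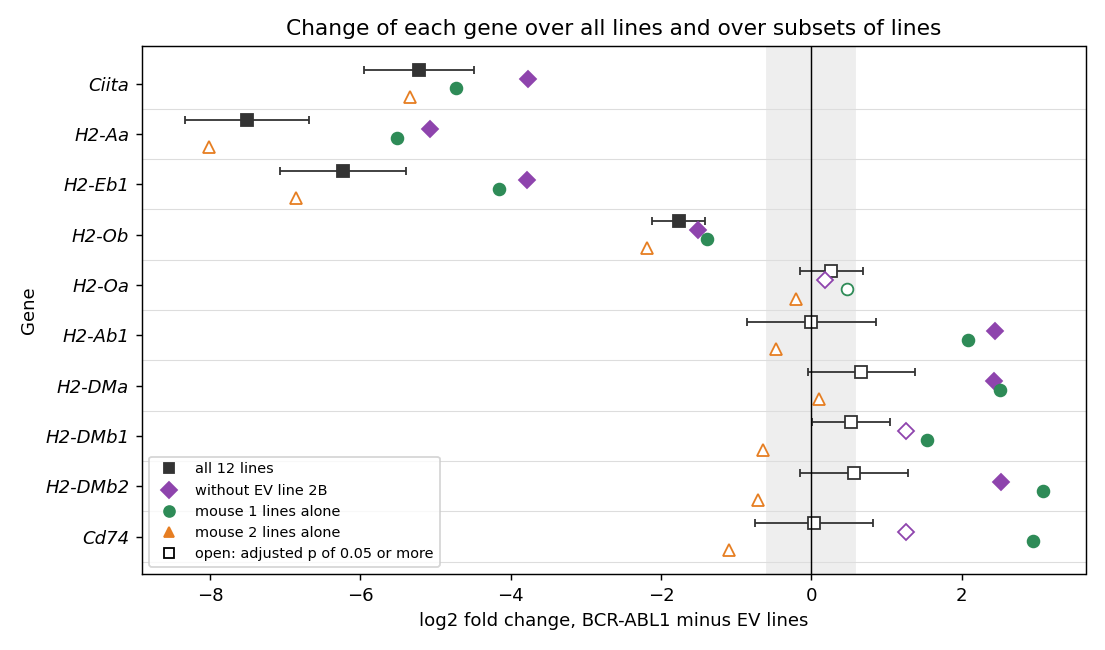
Log2 fold change (BCR-ABL1 minus EV lines) of each gene over all 12 lines (squares, with standard errors), without EV 2B (diamonds), and in the lines of mouse 1 (circles) and mouse 2 (triangles); filled symbols have an adjusted p under 0.05 and the grey band is the 1.5-fold limit. Ciita, H2-Aa, H2-Eb1 and H2-Ob are below 0 in all 4, and H2-Ab1 runs from -0.47 in mouse 2 to 2.45 without EV 2B.

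Per length, the order of the members differed between the conditions. In EV lines the median level, as CPM per kilobase of exon, was 37.4 for H2-Ob, 3.57 for Cd74, 3.08 for H2-Oa, 0.650 for H2-Eb1, 0.450 for H2-Aa, 0.299 for H2-DMb2, 0.276 for H2-DMb1, 0.195 for H2-Ab1, 0.155 for H2-DMa and 0.0861 for Ciita. In BCR-ABL1 lines it was 11.5 for H2-Ob, 7.94 for Cd74, 3.43 for H2-Oa, 1.53 for H2-DMb2, 1.22 for H2-Ab1, 0.966 for H2-DMa, 0.606 for H2-DMb1, 0.0335 for H2-Eb1, 0.00997 for H2-Aa and 0.00339 for Ciita. The ranges of all neighbours in the EV order overlapped, with EV 2B as the highest line of every member but H2-Oa. Some overlapped through EV 2B alone. Without it H2-Ob (13.6 or more) was above Cd74 (at most 7.12), and H2-Oa (2.14 or more) above H2-Eb1 (at most 0.775). H2-Aa (0.388 or more) was then above H2-DMb2 (at most 0.361). In the BCR-ABL1 order the ranges of H2-DMb1 (lowest 0.275) and H2-Eb1 (highest 0.0939) did not overlap, nor did those of H2-Oa and the members from H2-Ab1 downwards, while H2-DMb2 (up to 2.52) overlapped H2-Oa (from 1.88).

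EV 2B held Ciita at 12.0 times the median of the other EV lines, H2-Aa at 29.7 times, H2-Eb1 at 28.5 times, H2-Ab1 at 32.5 times, Cd74 at 22.95 times, H2-DMb2 at 20.4 times, H2-DMa at 19.8 times and H2-DMb1 at 5.45 times. H2-Ob was at 2.00 times and H2-Oa at 0.674 times. Markers of other cells that carry class II were at low levels in all EV lines. The summed level of 10 dendritic cell markers was 4.13 CPM, within the 2.63 to 9.23 CPM of the other EV lines, and that of 10 monocyte and macrophage markers was 2.07 CPM, within 0.659 to 2.61 CPM. Of the dendritic list 2 of 10 genes (Clec9a and Batf3, at 4 and 5 counts) were higher in EV 2B than in any other EV line, and of the monocyte list 3 of 10 (Ly6c2, Itgam and Cd14, at 59, 13 and 1 counts). Bst2, also made by other cells, had 146 counts in EV 2B, Itgax, which encodes CD11c of dendritic cells, had 4, Csf1r of macrophages 6, and Lyz2, Fcgr1 and Cd209a 0. Markers of later B cell stages were higher in EV 2B, with a sum of 497 CPM against 340 to 430 CPM in the other EV lines. Above every other EV line were 5 of the 11, among them Cr2, which encodes CD21 (49.5 against at most 17.4 CPM), Ighd of IgD (45.98 against at most 29.7 CPM), Tnfrsf13c, the BAFF receptor (22.7 against at most 16.4 CPM), and Fcer2a, which encodes CD23 (41 counts against at most 7). Of the B-lineage list, Rag1, a recombinase of B cell precursors, was at 147 CPM in EV 2B against at most 90.0 CPM in the other EV lines. Blnk, an adaptor of the pre-B cell receptor, was at 454 against at most 247 CPM. Igll1 (405 CPM) and Vpreb1 (524 CPM) of the same list were below the highest other EV line (813 and 790 CPM). The sum of this list was 7833 CPM in EV 2B, within the 5065 to 8463 CPM of the other EV lines. Among the genes at least 4-fold above every other EV line were also Prdm1 (30.5 CPM against at most 7.42) and March1, a ligase that marks class II chains for turnover (4.07 against at most 0.521 CPM). In BCR-ABL1 lines the dendritic sum was 8.16 to 14.2 CPM and the monocyte sum 5.61 to 7.65 CPM. Of the 14 B-lineage genes 1 rose (Dntt) and 1 fell (Cd22), but 0 rose with mouse as a block and 0 fell without EV 2B. Among all tested genes 5.98% rose and 6.46% fell, 7.47% rose with the block and 5.81% fell without EV 2B. For granulocyte (0.219 CPM), mast cell (0.219 CPM), T and NK cell (2.13 CPM) and stromal markers (0.318 CPM), the sum in EV 2B was within the range of the other EV lines, while that of erythroid markers was 6.79 CPM against at most 2.79 CPM. The part of any of these in the level of the members was not tested.

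Of 7 genes of the promoter complex (RFX, NF-Y and CREB), 1 fell and 0 rose, against 6.46% and 5.98% of all tested genes. Rfx5, the large RFX subunit, was at 36.9 to 65.1 CPM in EV lines (median 58.0) whereas the BCR-ABL1 lines had 27.1 to 35.2 CPM (median 29.8), with no overlap and a log2 fold change of -0.88 ± 0.13 (adjusted p = 0.0354). Without EV 2B it was -0.86 with an adjusted p of 0.0590. There 0 of the 7 passed glmTreat, against 5.81% of genes that fell and 6.42% that rose. An unadjusted p under 0.05 was reached by 2 of the 7. Rfxank (-0.81, adjusted p = 0.111) and Rfxap (-0.23, adjusted p = 1), the other RFX subunits, did not pass glmTreat. Both were nonetheless lower with no overlap, as were 13.5% of all tested genes. Rfxank was at 15.6 to 30.1 CPM in EV lines against 12.6 to 13.8 CPM, and Rfxap at 23.2 to 26.1 CPM against 18.9 to 22.1 CPM. Median log2 fold change over the list was -0.23.

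Of 19 genes listed as regulators of Ciita, 2 rose and 4 fell, with and without EV 2B. Among all tested genes 5.98% rose and 6.46% fell, and without EV 2B 6.42% and 5.81%. The list's median was -0.28. Prdm1, the plasma cell factor that represses Ciita, fell from 3.81 to 30.5 CPM in EV lines to 0.828 to 1.25 CPM (log2 fold change -3.15 ± 0.46, adjusted p = 0.00253, and -2.29 without EV 2B), so its direction was that of Ciita. Bcl6, a repressor of germinal centre and pre-B cells, fell (-4.08, adjusted p = 1.44e-05), as did Bach2, a B cell repressor (-1.50, adjusted p = 0.00699). Socs1, an inhibitor of JAK and STAT signalling that lies near Ciita, passed narrowly (1.68, adjusted p = 0.0369). Its effect differed between the mice (3.09 in mouse 1 and 0.73 in mouse 2, adjusted p = 0.000764 for the interaction), and leaving out 1 of 8 lines (EV 1A, 1B, 1C or 2A, or BCR-ABL1 1A, 1B, 1C or 2B) ended the call, with adjusted p-values of 0.0508 to 0.0723. Activators of Ciita in B cells did not pass the test, with log2 fold changes of 0.61 for Spi1 (adjusted p = 0.749), -0.10 for Pax5 (adjusted p = 1) and -0.78 for Irf8 (adjusted p = 0.243). Irf8 was still lower in every BCR-ABL1 line (146 to 212 CPM) than in any EV line (225 to 424 CPM), as were 13.5% of all tested genes. The effect on Spi1 differed between the mice (-0.10 in mouse 1 and 1.54 in mouse 2, adjusted p = 0.0394 for the interaction). For Pax5 and Irf8 the interaction did not pass (adjusted p = 0.617 and 0.0510).

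Of 14 tested genes of class II processing and turnover 2 rose and 0 fell, against 5.98% and 6.46% of all tested genes. The list median was 0.30. Ifi30, the lysosomal thiol reductase GILT, rose from 1.88 to 9.97 CPM in EV lines to 13.98 to 23.7 CPM in BCR-ABL1 lines (log2 fold change 2.27 ± 0.40, adjusted p = 0.00542), and Ctsz, a cathepsin, rose by 1.27 (adjusted p = 0.000108). Ctss, the protease that trims the invariant chain, had a log2 fold change of 0.99 over all lines (adjusted p = 0.402). Its effect differed between the mice (0.12 in mouse 1 and 2.62 in mouse 2, adjusted p = 0.000498 for the interaction). In mouse 2 alone it passed glmTreat (adjusted p = 0.0100). Of 4 genes listed with Cd74, Cxcr4, a chemokine receptor that can form a complex with it, fell (-1.08 ± 0.12, adjusted p = 0.00192), whereas Mif (0.87, adjusted p = 0.258) and Cd44 (-0.67, adjusted p = 0.478) did not pass.

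Costimulation, which accompanies class II in antigen presentation, gave 1 rise and 1 fall in 5 tested genes, and 2 rises and 1 fall with mouse as a block. Among all tested genes 5.98% rose and 6.46% fell, and with the block 7.47% and 7.16%. Icosl, the ligand of ICOS, had 0 counts in all EV lines but 2A, with 6 counts, and 1.65 to 2.20 CPM in BCR-ABL1 lines (adjusted p = 0.000326). Cd40, the receptor for T cell help, was at 0.875 to 5.03 CPM in the EV lines, against 0.182 to 0.610 CPM in the BCR-ABL1 lines (log2 fold change -2.99 ± 0.56, adjusted p = 0.00467). The effect on Cd40 differed between the mice (-1.31 in mouse 1 and -3.75 in mouse 2, adjusted p = 0.00481 for the interaction). Its EV lines had 0.875 to 0.953 CPM in mouse 1 and 4.42 to 5.03 CPM in mouse 2. Of 10 tested genes of later B cell stages 1 rose and 3 fell, against 5.98% and 6.46% of all tested genes. Fcmr, the Fc receptor for IgM, fell by 7.19 on the log2 scale (adjusted p = 0.000118), and Ms4a1, which encodes CD20, fell by 6.19 (adjusted p = 0.00807).

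The class I pathway, whose coactivator is Nlrc5, a relative of Ciita, gave 0 calls in 20 genes with glmTreat, 0 with DESeq2, 3 at an unadjusted p under 0.05 and 9 in edgeR's test against no change, which calls 48.5% of all genes. With glmTreat 5.98% of all tested genes rose and 6.46% fell. Without EV 2B 1 of the 20 rose (Psmb8), against 6.42% of genes. Nlrc5 was at 268 to 394 CPM in the EV lines, against 267 to 298 CPM in the BCR-ABL1 lines (log2 fold change -0.15 ± 0.09), and H2-K1 (-0.62), H2-D1 (-0.36) and B2m (-0.25), the class I chains, had adjusted p-values of 0.616, 1 and 1. The median of the list was -0.16. H2-K1 was lower in every BCR-ABL1 line (482 to 605 CPM) than in any EV line (610 to 1098 CPM), as were 13.5% of all tested genes. The interaction of mouse and condition passed for H2-K1 (-0.20 in mouse 1 and -0.95 in mouse 2, adjusted p = 0.00557). It also passed for B2m (0.07 and -0.52, adjusted p = 0.0288). Of the other class II genes, H2-Eb2 was at 8.81 to 18.7 CPM in the EV lines, against 4.53 to 14.6 CPM in the BCR-ABL1 lines (-0.49 ± 0.35, adjusted p = 0.973), while H2-Ea-ps and H2-Pa had at most 3 counts in every EV line. The effect on H2-Eb2 differed between the mice (0.32 in mouse 1 and -1.54 in mouse 2, adjusted p = 0.00318 for the interaction). Its BCR-ABL1 lines had 9.55 to 14.6 CPM in mouse 1 and 4.53 to 4.90 CPM in mouse 2.

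On the map, H2-Ob, H2-Ab1, H2-Aa and H2-Eb1 follow each other with no other tested gene between them. Within the class II region of chromosome 17, from 100 kb before to 100 kb after the members, 15 other genes were tested. Of these 0 rose and 1 fell, against 5.98% and 6.46% of all tested genes, and their median log2 fold change was -0.09. The gene that fell, Mir219c (-1.30, adjusted p = 0.00621), is a microRNA gene. Tap1 (-0.17) and Psmb8 (0.86), class I processing genes that lie between H2-DMb1 and H2-Ob, had adjusted p-values of 1 and 0.102, and Psmb8 passed without EV 2B (0.94, adjusted p = 0.0440). The effect on Psmb8 differed between the mice (1.40 in mouse 1 and 0.40 in mouse 2, adjusted p = 0.00044 for the interaction). None of the 15 was 4-fold above the other EV lines in EV 2B, against 0.346% of all tested genes. Within 300 kb of Ciita 6 other genes were tested, of which Socs1 rose, beside 5.98% of all tested genes. Prm1, a sperm protamine, was at 6.02 CPM in EV 2B against at most 0.981 CPM in the other EV lines. Dexi, an antisense gene that overlaps Ciita by 25888 bases, had at most 580 counts in a line and a log2 fold change of -0.53 (adjusted p = 1), and Clec16a, the next gene, had one of -0.38 (adjusted p = 1).

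**Figure D4:**
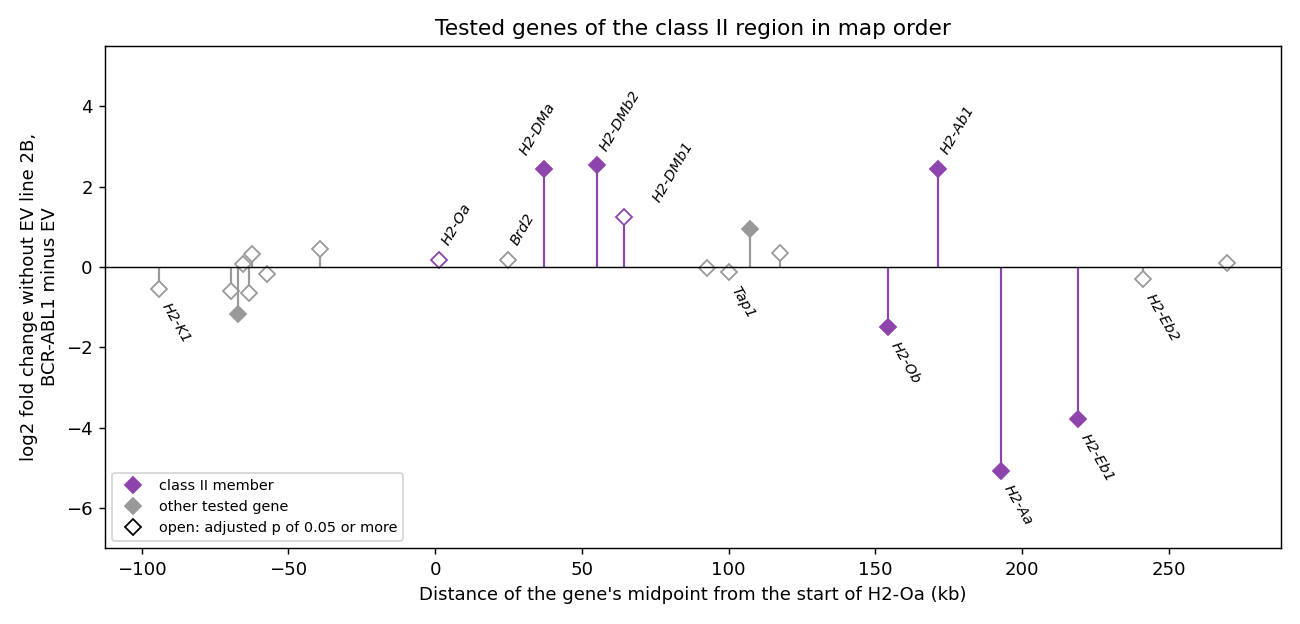
Log2 fold change without EV 2B (BCR-ABL1 minus EV lines) of the tested genes of the class II region, at the distance in kb of each gene's midpoint from the start of H2-Oa, with members in purple and others in grey; filled symbols have an adjusted p under 0.05. H2-Ob, H2-Aa and H2-Eb1 point down, H2-DMa, H2-DMb2 and H2-Ab1 point up, and most of the other genes lie nearer to 0.

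As a measure of likeness, Pearson's r of log2 CPM with Ciita over the 12 lines, which share the condition and EV 2B, was highest for Prdm1 (0.975), Eif2ak4 (0.972), Zfhx2 (0.970), H2-Aa (0.969) and Usp20 (0.969). Among the members it was 0.952 for H2-Eb1 and 0.803 for H2-Ob, and between -0.325 and -0.0116 for the other 6. After the mean of each mouse and condition was taken off, r with Ciita was between 0.712 and 0.903 for every member but H2-Oa (0.234), and it was highest over all genes for Gm42638 (0.996), Nfrkb (0.978), Cic (0.975), Zbtb21 (0.974) and Mast3 (0.968). Without EV 2B, over 11 lines, r with Ciita was 0.944 for H2-Aa, 0.919 for H2-Eb1, -0.745 for H2-Ab1, -0.798 for H2-DMa and -0.898 for H2-DMb2. These values describe the 12 libraries and carry no test.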

How the data were processed

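Stranded total RNA libraries of 6 EV and 6 BCR-ABL1 lines were counted per gene by the authors, who deposited whole-number counts without normalization. The submitters' processing notes name FastQC 0.11.5, Trimmomatic 0.36, TopHat2 2.1.1, Bowtie2 2.3.2, featureCounts 1.5.3, R 3.6.1, edgeR 3.18.1 and GRCm38. The strand setting of counting is not given in the sources used here. Symbols and positions came from GENCODE M21 (GRCm38), which held 51633 of 51826 identifiers. Promoter sequences came from RefSeq (GRCm38.p6), and motifs were searched on both strands.

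Counts were analysed in R 4.3.3 with edgeR 4.0.16 (filterByExpr, TMM, robust quasi-likelihood fit, glmTreat against 1.5-fold, Benjamini-Hochberg threshold 0.05; the authors' fold limit and threshold) and with DESeq2 1.42.0. Figures used matplotlib 3.10.9. CPM used TMM-scaled totals, and log2 CPM a prior count of 2. Totals were 34791011 to 66011225 counts per line, and 3 counts were taken as the floor, which covers counting error only. Labels gave condition, mouse and letter. Equal mouse numbers mean the same animal, and deviations from condition means correlated at 0.0853 to 0.240 within a mouse and -0.203 to -0.0636 between mice, so the mouse pairs the lines. Letters did not pair them (-0.109 to 0.0856). The labels call the triplicates biological, from independent experiments, and p-values measure the spread between lines of 2 mice. Chi-square per gene between lines of one mouse and condition was at least 9.96, so no library was counted as a repeat.

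The members and lists were chosen with earlier results of these data known. From each list the counts were given and at most 4 genes were named, the called genes with the largest change first and then those with the highest level. Some listed genes are not reported here. Cd79a, Rfxap, Rfxank, Ctss, Rag1, Blnk, Igll1, Vpreb1, Irf8, Cr2, Ighd, Tnfrsf13c, Fcer2a and the other-cell markers were named after their values were seen. Genes of the class II region and those around Ciita were named by the same limit, and the genes most like Ciita were the 5 with the highest r by each measure. Alternatives were RLE scaling, omitting filterByExpr, a minimum of 1 CPM in 6 or more lines, the likelihood ratio fit, a test against no change, DESeq2, mouse or line pair as block, each mouse alone, leaving out each line and, added after seeing the data, mouse 2 without EV 2B. On simulated counts with 200 genes changed 8-fold, of 14945 genes tested, glmTreat recovered 182 and called 0 others, the likelihood ratio fit 187 and 5, and DESeq2 187 and 2. The interaction test recovered 154 and called 10 others of 14948.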

Additional observations from a re-analysis of the deposited data

Results flagged for a closer look

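EV 2B was far from the other 5 EV lines for 6 members. The gap of log2 CPM to the nearest line, as a share of the range of the EV lines, was 0.924 for H2-Aa, 0.881 for H2-DMb2, 0.857 for H2-Eb1, 0.757 for H2-Ab1, 0.664 for H2-DMa and 0.631 for H2-DMb1, above Dixon's critical value of 0.625 for 6 lines. In all 20 groups of 6 lines were examined, and chance marks about 1 in 20. All 6 marks belong to EV 2B, so they are not independent of each other. Cd74 is marked because its BCR-ABL1 effect differed between the mice (adjusted p = 0.00281 for the interaction in edgeR's quasi-likelihood test), with a log2 fold change of 2.95 in mouse 1 and -1.10 in mouse 2. The negative value rests on EV 2B, without which it was 0.041, and the interaction without EV 2B had an adjusted p of 4.53e-06.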

How the results depend on the processing

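Ciita, H2-Aa, H2-Eb1 and H2-Ob kept their direction under every alternative that tested them. The number of members that fell was 4 under most alternatives, 2 with a minimum of 1 CPM in 6 or more lines, where Ciita and H2-Eb1 were not tested, 2 with DESeq2, which gave no adjusted p to H2-Aa and H2-Eb1, and 0 in mouse 2 alone. Leaving out each line gave 4 throughout. The number that rose was 5 in mouse 1 alone and 0 to 3 when a line was left out, 3 without EV 2B. DESeq2 gave 0, but no adjusted p to H2-Ab1 and H2-DMa. With mouse as replicate block 0 rose and 4 fell, as without it, and it changed no other call of a member. The letter block gave 0 and 4 as well.

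H2-Ab1 turned positive with RLE scaling (0.041), no gene filter (0.089), mouse block (0.74), line pair block (1.73) and mouse 1 alone (2.09), and ran from -0.24 to 2.45 when a line was left out. In mouse 2 alone H2-DMb1 (-0.64), H2-DMb2 (-0.71), H2-Oa (-0.21) and Cd74 (-1.10) were negative. When EV 2B was left out of mouse 2, an alternative chosen after seeing the data, H2-DMb1 (1.03), H2-DMb2 (1.83), Cd74 (0.041) and H2-Ab1 (2.63) were positive and H2-Oa was at -0.15, with 2 members that rose and 2 that fell. Cd74 ran from -0.19 to 1.26 when a line was left out. H2-Eb2 was at 0.32 in mouse 1 alone. The interaction passed for 7 members with no gene filter, 2 with DESeq2 and 1 to 7 when a line was left out, 7 without EV 2C. EV lines of the mice differed in 7 members with no gene filter and in 1 to 7 when a line was left out, 6 without EV 2A and 7 without EV 2C. BCR-ABL1 lines of the mice differed in 1 to 2 when a line was left out, 2 without EV 2B. Apart from the interaction without EV 2B, the share of all genes under these alternatives is not given here. Whether these counts are particular to the members therefore cannot be told. Of the other lists 10 genes rose and 12 fell. Against no change 21 rose and 31 fell, 31 rose in mouse 1 alone and 6 in mouse 2 alone, and 7 to 15 rose when a line was left out. Without a gene filter the median of all genes was -0.84 on the log2 scale, against -0.02. Over all genes 899 rose and 971 fell, against 2500 and 1878 in mouse 1 alone, 590 and 387 in mouse 2 alone, 3386 and 3901 against no change, 598 and 671 with the CPM minimum, and 795 and 651 with DESeq2. Rfx5 lost its call in 13 of 23 alternatives and Socs1 in 12. The cause of these shifts was not tested. Depth limits Ciita, H2-Aa and H2-Eb1 in BCR-ABL1 lines, where a line had 0 to 12 counts.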
